A study of Mus musculus with 11 samples.

Results

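The genes described here are those of the mitochondrial ribosomal proteins, taken as every protein-coding gene of the deposited gene table whose symbol begins with Mrpl or Mrps followed by a digit. There were 73 of them, 46 Mrpl and 27 Mrps genes, among 13088 genes in the table, 12009 of them protein-coding. For 30 of the 73 the deposited table of upstream antisense RNAs (uaRNAs), which holds 5867 regions, had a region under the same gene identifier. Of these, 72 genes and 27 uaRNAs had a mean of 10 or more depth-normalized reads over the 5 libraries and were tested. The exception among genes was Mrpl53, listed at 0 in all 5 libraries, and the uaRNAs left out were those of Mrpl17, Mrps17 and Mrps22.

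Newly made RNA was measured by transient transcriptome sequencing, in which cells take up 4-thiouridine (4sU) and the labelled RNA is fragmented, biotinylated, pulled down and sequenced. The cells were wild-type F121-9 mouse embryonic stem cells, an established female line of CAST/129 hybrid background, grown on gelatin in serum-free medium with LIF and inhibitors of MEK and GSK3. They were transfected with a non-targeting siRNA at 30 nM (siNT, replicates 1, 2 and 3) or with an siRNA against Zc3h4 at 30 nM (siZC3H4, replicates 2 and 3), then 500 µM 4sU for 20 minutes, and were collected 47 hours after transfection. Both groups therefore share the line, the transfection and the labelling, and the series' other 6 samples, DMSO and dTAG cells with a degradable ZC3H4, are not analysed here. ZC3H4 belongs to Restrictor, a complex that curbs the transcription of noncoding RNAs.

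Mitochondrial ribosomes translate the few proteins encoded by mitochondrial DNA, nearly all of them core subunits of the respiratory chain and of ATP synthase. Their RNA comes from the mitochondrial genome, but every protein of the particle is encoded in the nucleus, made in the cytosol and imported. Some of these proteins have a counterpart in bacterial ribosomes and others are specific to mitochondria. A uaRNA is a short-lived transcript that leaves a promoter in the direction opposite to its gene. By known function, 48 of the 73 genes encode large subunit proteins, 28 with a bacterial counterpart and 20 specific to mitochondria, and 24 encode small subunit proteins, 15 and 9. Mrps18a and Mrps30 are named for the small subunit but their proteins sit in the large one and are counted there. Mrps36, whose product belongs to the 2-oxoglutarate dehydrogenase complex, was kept apart.

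The siRNA target was examined first. Zc3h4 had 3465, 3610 and 3363 depth-normalized exon reads under siNT against 7285 and 6718 in the libraries labelled siZC3H4. Its newly made RNA was thus higher, not lower, in the libraries labelled siZC3H4, with a log2 fold change of 1.01 ± 0.11 (SE, adjusted p = 0.00431, limma with Benjamini-Hochberg adjustment over 12482 genes). Leaving out siNT replicate 1 or siZC3H4 replicate 2 took the adjusted p to 0.055 and 0.058. No values of steady-state Zc3h4 RNA or protein were used here, so the direction of each comparison rests on the libraries' labels. All 10 pluripotent stem cell markers examined were in the gene table, with summed exon reads of 83136 to 111445 per library. In all 5 fibroblast, 1 endoderm, 4 trophoblast and 1 neural marker were not in it. The summed reads of those that were came to 29217 to 34705 for fibroblast, most of it Fn1, and 155.7 to 293.5 for extraembryonic endoderm. For trophoblast markers they came to 1748 to 2278, most of it Tfap2c, and for neural markers to 1317 to 1950. Before depth normalization the libraries held 14840637 to 26548710 exon reads and 996927 to 2648683 uaRNA reads.

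Promoters are shown for 5 members with a uaRNA or a divergent neighbour on which the results below turn. Mrpl24 had the largest uaRNA rise and Mrps31 the lowest uaRNA log2 fold change. Mrps18a and Mrpl52 had a uaRNA rise at a promoter with a motif of the ETS family. Mrpl43 has a gene pair, with Twnk, in place of a uaRNA. Each line gives the 200 bases before the RefSeq transcript start on the strand of the Mrpl or Mrps gene, 5′ to 3′, from the RefSeq promoter table of GRCm38.p6. Capitals mark matches, on either strand, to CCGGAAG (the core bound by ETS factors such as GABP), the NRF1 palindrome or its inner letters GCATGCGC, AAGATGGC (YY1), CCAAT (NF-Y) or TATAAA. The coordinates are chr3:87919343-87919542 on the plus strand for Mrpl24, chr17:46110804-46111003 on the plus strand for Mrps18a, chr14:54426709-54426908 on the plus strand for Mrpl52, chr8:22411140-22411339 on the plus strand for Mrps31 and chr19:45006443-45006642 on the minus strand for Mrpl43.
Mrpl24: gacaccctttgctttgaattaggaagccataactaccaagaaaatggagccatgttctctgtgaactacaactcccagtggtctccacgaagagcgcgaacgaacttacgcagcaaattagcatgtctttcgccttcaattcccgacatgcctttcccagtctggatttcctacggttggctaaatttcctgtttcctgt
Mrps18a: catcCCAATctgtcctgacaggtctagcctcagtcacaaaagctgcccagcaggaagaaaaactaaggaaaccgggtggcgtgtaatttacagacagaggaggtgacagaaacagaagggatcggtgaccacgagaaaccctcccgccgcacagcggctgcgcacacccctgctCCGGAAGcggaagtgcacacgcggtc
Mrpl52: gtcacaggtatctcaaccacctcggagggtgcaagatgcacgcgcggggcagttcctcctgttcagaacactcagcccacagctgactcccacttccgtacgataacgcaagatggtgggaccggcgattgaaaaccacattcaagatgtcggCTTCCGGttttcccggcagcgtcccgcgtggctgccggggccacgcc
Mrps31: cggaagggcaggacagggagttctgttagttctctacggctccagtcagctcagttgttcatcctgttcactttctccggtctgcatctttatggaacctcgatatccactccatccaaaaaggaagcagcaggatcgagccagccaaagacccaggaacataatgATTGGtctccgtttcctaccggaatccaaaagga
Mrpl43: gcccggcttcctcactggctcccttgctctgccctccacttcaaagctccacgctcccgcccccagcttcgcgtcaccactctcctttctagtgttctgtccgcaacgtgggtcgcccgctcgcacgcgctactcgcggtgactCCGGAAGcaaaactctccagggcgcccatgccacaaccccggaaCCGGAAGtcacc
The Mrpl24 window held none of these letters. Those of Mrps18a and Mrpl52 each held 1 ETS match, on opposite strands, and that of Mrps18a also a CCAAT. The Mrps31 window held a CCAAT match only. The Mrpl43 window held 2 ETS matches and includes the start of Twnk, the gene of the mitochondrial DNA helicase, which is transcribed the other way from 155 bases upstream of the deposited Mrpl43 start.

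RefSeq promoters whose start lay within 100 bases of the deposited gene start were found for 55 of the 73 members and for 7299 protein-coding genes, each as a window of 250 bases before to 50 bases after the start. The ETS letters were in 20 of the 55 members (36.4%), against 21.2% of the protein-coding promoters. YY1 letters were in 10 (18.2%, against 5.54%), the inner NRF1 letters in 7 (12.7%, against 6.63%), CCAAT in 19 (34.5%, against 42.1%) and TATAAA in 4 (7.27%, against 6.36%). The full NRF1 palindrome, which contains the inner letters, was in 3 (5.45%, against 2.64%). GABP, NRF1 and YY1 are known regulators of nuclear genes for mitochondrial proteins. Mrps18a and Mrpl52 were printed for their ETS match, and the window of Mrpl12, whose uaRNA also rose, held none of these letters. ETS letters were in 3 of 7 matched promoters of members whose uaRNA rose and in 1 of 12 whose uaRNA did not pass. A link between these letters and the uaRNA was not tested. These are counts of letters in windows and show no binding.

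Members were transcribed at a middling to high level, and within a narrow range. In the siNT libraries the median member had 826 depth-normalized exon reads per kb of deposited transcript length, against 198 for the median protein-coding gene. The lower and upper quartiles of members were 559 and 1121 reads per kb, against 60.8 and 512 for protein-coding genes. Genes of cytosolic ribosomal proteins (80 genes, median 13564 per kb) and of respiratory chain subunits (75 genes, median 1821 per kb) were higher on the same scale. Members were also short, with a median transcript of 1123 bases and a median gene span of 7081 bases, against 2752 and 21404 bases for protein-coding genes. Large and small subunit genes had medians of 847 and 746 reads per kb. In bulk samples such as these, fewer cells of a type and less RNA per cell cannot be told apart.

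The highest level per kb was that of Mrps18b (chr17:35910379-35916366), a small subunit gene, at 2985 ± 239 exon reads per kb (SD, n = 3). Mrpl12, whose protein forms the flexible stalk that contacts translation factors, followed at 2775 ± 143 and Mrpl17 at 2565 ± 359, all on the per kb scale. These neighbours in the order lay within about their spread of one another. Mrpl20 (1874 ± 298 per kb) and Mrpl49 (1853 ± 38.7 per kb) came next. At the other end were Mrpl1, which encodes the protein of the mobile L1 stalk, at 201 ± 44.1 exon reads per kb, Mrpl32 at 208 ± 71.3, Mrps25 at 251 ± 22.2 and Mrpl41 at 282 ± 19.4. Mrpl53 (chr6:83109088-83109939) lies lowest because it is listed at 0, and its annotated span overlaps that of another gene, Gm42688, on the same strand.

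**Figure D1:**
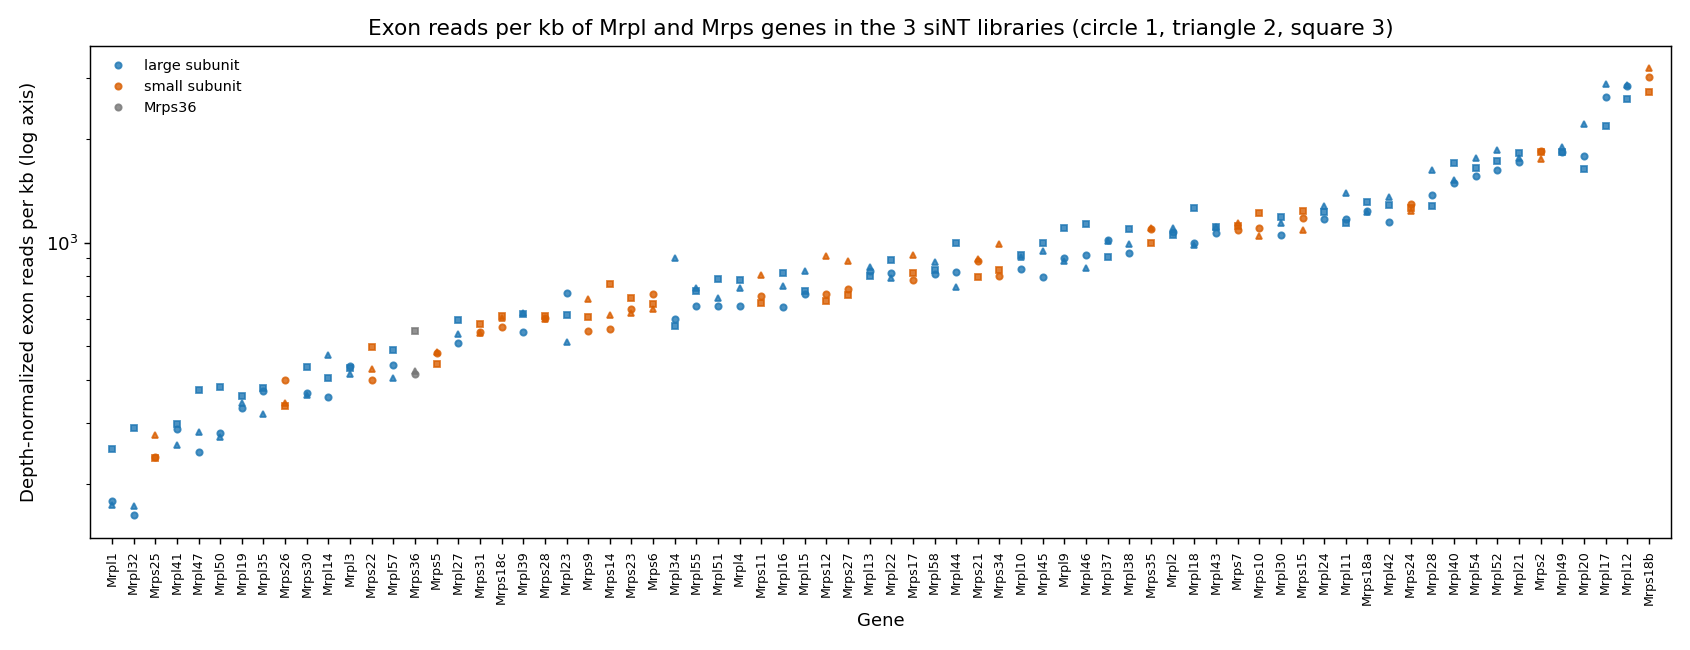
Depth-normalized exon reads per kb of transcript, on a log axis, of the 72 members above 0 in each of the 3 siNT libraries, ordered by their mean. Points are single libraries, coloured by subunit. The series runs from Mrpl1 (201 per kb) to Mrps18b (2985 per kb), with Mrpl53, listed at 0, left off.

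No member passed the test in exon reads. Of 72 tested genes, 0 rose and 0 fell at an adjusted p below 0.05 in limma, against 2.22% of all 12482 genes that rose and 0.144% that fell. Counts were also 0 in both directions with edgeR (all genes 2.76% and 0.152%) and with DESeq2 (4.30% and 0.777%) on the recovered reads. At an unadjusted p below 0.05 there were 6 members, against 15.3% of all genes. The members' log2 fold changes ran from -0.35 to 0.47 with a median of -0.04 (all genes 0.01), and 31 were above 0 and 41 below. Both libraries labelled siZC3H4 lay above every siNT library for 11 members (background 19.5%) and below every siNT library for 16 (background 12.8%). With siNT replicate 3 left out, 1 member, Mrpl51, passed the test (adjusted p = 0.037).

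The 6 highest exon log2 fold changes were all of large subunit genes. Mrpl23, whose protein lies near the exit of the tunnel for the nascent chain, had 369, 265 and 319 depth-normalized exon reads in siNT and 490 and 391 in the libraries labelled siZC3H4. Both of the latter were above all siNT values, and the log2 fold change was 0.47 ± 0.19 (SE, adjusted p = 0.279). Mrpl51, specific to mitochondria, had 2446, 2574 and 2933 against 3543 and 3472 exon reads, with no overlap and a log2 fold change of 0.41 ± 0.12 (adjusted p = 0.133). Mrpl24, another protein of the tunnel exit region, had 1520, 1663 and 1600 against 2099 and 1936 exon reads. The 2 groups again did not overlap (log2 fold change 0.34 ± 0.12, adjusted p = 0.199). Mrpl2, which encodes a protein close to the peptidyl transferase centre, had 1098, 1131 and 1079 against 1491 and 1287 exon reads (0.33 ± 0.13, adjusted p = 0.252). Mrpl27 and Mrpl11 had log2 fold changes of 0.26 and 0.23, and the groups of Mrpl11 overlapped.

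The lowest exon log2 fold change was that of Mrps9, a small subunit gene with a bacterial counterpart. It had 757, 942 and 833 depth-normalized exon reads in siNT and 650 and 665 in the libraries labelled siZC3H4, which both lay below every siNT value (-0.35 ± 0.14, adjusted p = 0.279). Mrps24, the counterpart of a protein at the bacterial mRNA entry site, had 1252, 1194 and 1215 against 1001 and 1019 exon reads. This gap exceeded the range within either group (-0.27 ± 0.12, adjusted p = 0.322). Mrps28 had 404, 402 and 409 against 331 and 342 exon reads, also without overlap (-0.27 ± 0.15, adjusted p = 0.46). Mrpl34, Mrps18c and Mrpl37 had log2 fold changes of -0.25, -0.25 and -0.24. Of these the groups of Mrpl34 overlapped, and its value was 0.06 without siZC3H4 replicate 3.

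Small subunit genes lay lower than large subunit genes in exon log2 fold change, although 0 of either passed the test. Of 24 small subunit genes 19 had a log2 fold change below 0, with a median of -0.11, and of 47 large subunit genes 22 did, with a median of 0.00; of all 12482 genes 5932 did. Both libraries labelled siZC3H4 were below every siNT library for 11 small subunit genes and 5 large subunit genes, and above for 1 (Mrps17) and 10. As shares these are 45.8% and 10.6% lower, against 12.8% of all genes, and 4.17% and 21.3% higher, against 19.5%. Of the small subunit genes with a bacterial counterpart 13 of 15 were below 0, and of those specific to mitochondria 6 of 9. Relative to each gene's mean over the libraries, the median small subunit gene stood at 0.03, 0.08 and 0.04 (log2) in siNT and at -0.04 and -0.13 in the libraries labelled siZC3H4. The median large subunit gene stood at -0.09, -0.02 and 0.04 against 0.06 and -0.01. The small subunit median ran from -0.18 to -0.10 over the scalings, filters and left-out libraries tried, while the large subunit median changed sign. The difference between the subunits was noticed in these values and was not tested.

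**Figure D2:**
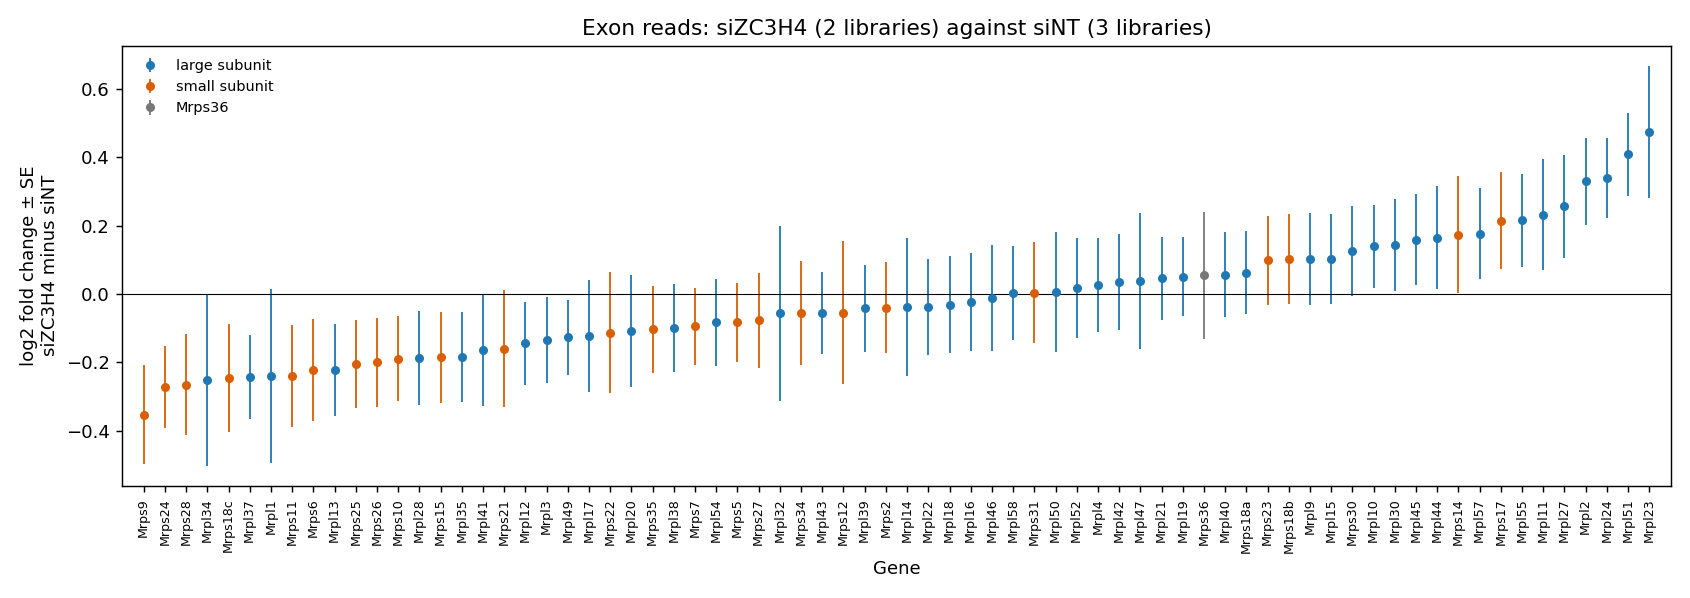
Log2 fold change of exon reads, libraries labelled siZC3H4 minus siNT, with limma's standard error, for the 72 tested members in order, coloured by subunit. None passed the test. The ends are Mrps9 (-0.35) and Mrpl23 (0.47), and 19 of 24 small subunit genes lie below 0.

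In the upstream antisense direction the picture was different, at the authors' depth factors. Of 27 tested uaRNAs, 12 rose in the libraries labelled siZC3H4 and 0 fell (limma, adjusted p below 0.05). The share that rose, 44.4%, stands beside 62.1% of all 5124 uaRNAs tested, and 1.13% of all fell. The members' median log2 fold change was 0.66, against 0.88 for all uaRNAs, and 24 of 27 were above 0. For 18 members both libraries labelled siZC3H4 lay above every siNT library (background 73.7%) and for 1, Mrps31, both lay below (background 2.11%). The 12 were Mrpl24, Mrps28, Mrpl38, Mrps18a, Mrpl58, Mrps35, Mrpl12, Mrpl52, Mrpl4, Mrpl39, Mrpl16 and Mrpl15. These directions depend on the depth factors: with the uaRNA table scaled on itself, which moved the median of all uaRNAs to 0.01 (median of ratios) or 0.03 (TMM), the members' medians turned to -0.22 and -0.19 and 1 member rose and 4 fell. With the uaRNA table scaled by the exon table, 11 rose and 0 fell.

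The largest uaRNA change was that of Mrpl24, whose promoter is printed above. Its uaRNA had 17, 4.35 and 11.1 depth-normalized reads in siNT and 56 and 29.6 in the libraries labelled siZC3H4. The groups were apart although counts were low, and the log2 fold change was 1.99 ± 0.45 (SE, adjusted p = 0.00017); without siZC3H4 replicate 2 the adjusted p was 0.067. The uaRNA of Mrps28, a small subunit gene spanning chr3:8802146-8923803, had 167, 150 and 155 reads in siNT and 645 and 500 in the libraries labelled siZC3H4. This was the best measured rise, at 1.84 ± 0.24 (adjusted p = 2.71e-09), it was called in all 18 settings run, and its direction did not turn under any scaling. Over the same libraries the exon log2 fold change of Mrps28 was -0.27, among the lowest of the members.

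Mrpl38, whose protein lies in the central protuberance of the large subunit, had 7, 17.4 and 11.1 uaRNA reads in siNT against 40.7 and 34.4 in the libraries labelled siZC3H4. Its log2 fold change was 1.67 ± 0.43 (adjusted p = 0.000756). Mrps18a, printed above with an ETS match, had 42, 44.3 and 38.4 uaRNA reads against 141 and 106. The siNT libraries lay close together, and the log2 fold change was 1.54 ± 0.30 (adjusted p = 1.94e-05). Mrpl58, which encodes a peptidyl-tRNA hydrolase built into the large subunit, had 23, 20.9 and 26.5 uaRNA reads against 69 and 45.9 (1.24 ± 0.36, adjusted p = 0.00235). Mrps35 had 103, 121 and 125 against 329 and 214 uaRNA reads (1.19 ± 0.26, adjusted p = 8.92e-05).

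Among members with more uaRNA reads, Mrpl12 had 116, 117 and 125 in siNT and 324 and 228 in the libraries labelled siZC3H4 (log2 fold change 1.18 ± 0.25, adjusted p = 8.01e-05). Mrpl52, specific to mitochondria and also shown above, had 489, 475 and 647 against 1168 and 1127 uaRNA reads. The rise, 1.11 ± 0.21 (adjusted p = 1.24e-05), was carried about equally by both libraries labelled siZC3H4. Mrpl4, whose protein lines the exit tunnel, had 267, 221 and 214 against 585 and 384 uaRNA reads (1.02 ± 0.24, adjusted p = 0.000203). Smaller rises were those of Mrpl39 (0.72), Mrpl16 (0.72) and Mrpl15 (0.66) on the log2 scale. For these 12 uaRNAs the value in siZC3H4 replicate 2 exceeded that in replicate 3 except at Mrpl15. With each library left out in turn, 7 of the 12 were called every time: Mrpl12, Mrpl38, Mrpl4, Mrpl52, Mrps18a, Mrps28 and Mrps35. Without siZC3H4 replicate 2 the count that rose was 7, and without siZC3H4 replicate 3 it was 10.

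Not every member's uaRNA was higher. That of Mrps31 (chr8:22411421-22429665), a small subunit gene specific to mitochondria, had 86, 62.6 and 94.7 reads in siNT and 55.5 and 60.2 in the libraries labelled siZC3H4. Both of the latter lay below every siNT value, and the log2 fold change of -0.46 ± 0.30 did not pass (adjusted p = 0.169). Mrpl45, whose protein helps to hold the ribosome at the inner membrane, had 240, 243 and 214 uaRNA reads against 245 and 166 (-0.20 ± 0.24, adjusted p = 0.475). The 2 libraries labelled siZC3H4 differed from each other more than the groups did. Mrps9 (-0.07), Mrps25 (0.05), Mrpl35 (0.07) and Mrpl18 (0.13) had log2 fold changes near 0 and overlapping groups. Mrps6, at 8, 10.4 and 7.68 against 16.4 and 21 uaRNA reads, did not overlap and did not pass (1.02 ± 0.48, adjusted p = 0.056). By subunit, 10 of 17 large subunit uaRNAs rose, with a median log2 fold change of 0.72, and 2 of 10 small subunit uaRNAs, with a median of 0.30. Their shares of 58.8% and 20.0% stand beside the 62.1% of all uaRNAs, and the difference between subunits was not tested.

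**Figure D3:**
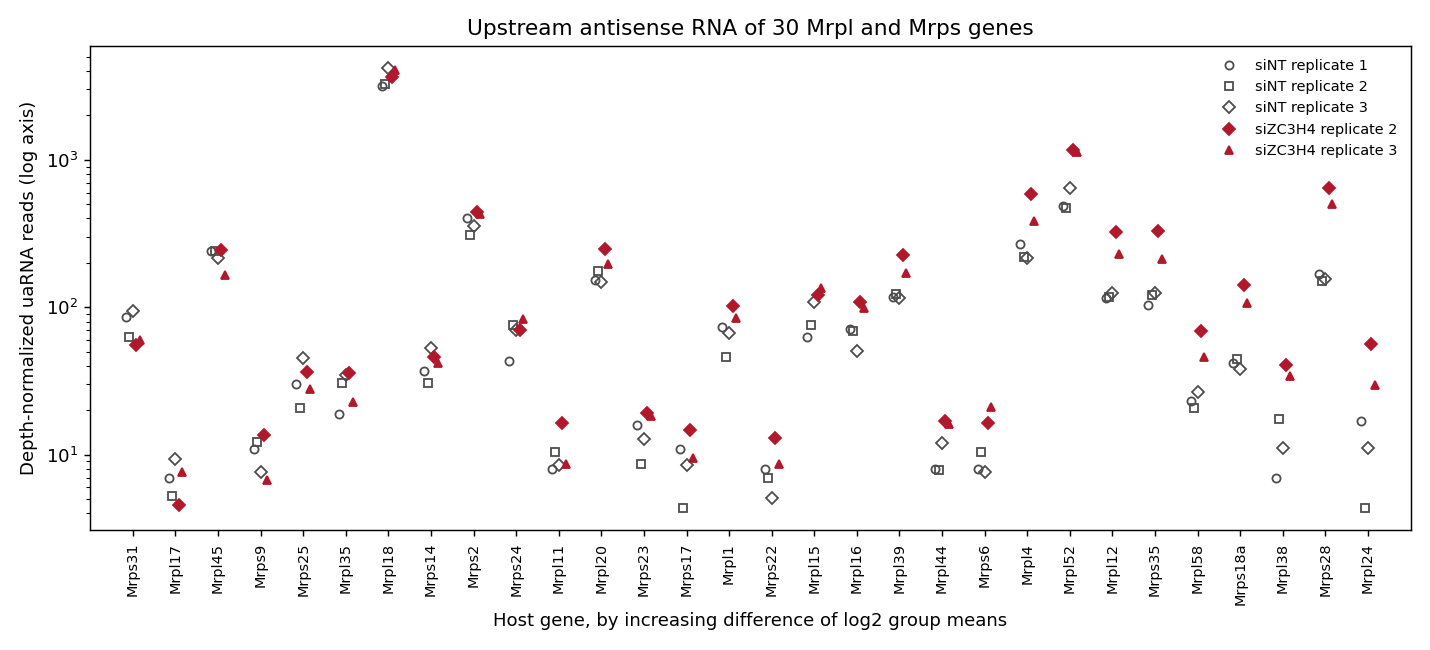
Depth-normalized uaRNA reads (log axis) of the 30 members with a uaRNA region, one point per library, open for siNT and filled red for the libraries labelled siZC3H4. At Mrpl24, Mrps28 and Mrpl38 the filled points lie above all open ones, at Mrps31 below them, and Mrpl18 stands far above the rest at 3159 to 4200 reads.

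Reads of a uaRNA cannot be given per length, since the deposited uaRNA table has no coordinates. In reads, Mrpl18 had the most of all members, with 3159, 3270 and 4200 in siNT and 3667 and 4036 in the libraries labelled siZC3H4, and the groups overlapped. Mrpl18 (chr17:12911355-12916792) lies head to head with Tcp1, a gene of the cytosolic chaperonin, whose RefSeq span covers 1000 of the 1000 bases upstream on the opposite strand, so that the sense transcript of Tcp1 runs in the direction in which the uaRNA is read. Tcp1 had 6125, 5998 and 8053 exon reads in siNT and 6869 and 7639 in the libraries labelled siZC3H4 (log2 fold change 0.12 ± 0.15). Replicate 3 was its highest siNT library, as it was for the Mrpl18 uaRNA. The exon reads of Mrpl18 itself were also highest there (1651, 1630 and 2090 in siNT), so this order was not particular to Tcp1. The part of Tcp1 RNA in the Mrpl18 uaRNA value was not tested. Other members with a uaRNA and a RefSeq gene in that 1 kb were Mrpl44 (Wdfy1, 1000 bases) and Mrpl12 (Hgs, 286 bases, on the same strand as Mrpl12). After Mrpl18 came Mrpl52, Mrps2 and Mrpl4 in siNT uaRNA reads. Per 100 exon reads of the same gene, siNT uaRNA reads were 198 for Mrpl18, 73.5 for Mrpl52, 38.9 for Mrps28 and 28.8 for Mrpl4, against a range down to 0.266 for Mrpl17.

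Since the depth factor of a library divides both of its tables, the ratio of uaRNA to exon reads of a gene does not depend on it. By this ratio 12 of 27 members rose and 0 fell (limma on the log2 ratio), against 53.9% and 1.23% of 5106 genes, and the members' median log2 change was 0.64 against 0.87. For Mrps28 there were 38.9 uaRNA reads per 100 exon reads in siNT and 170 in the libraries labelled siZC3H4, a log2 change of the ratio of 2.11 (adjusted p = 0.000166). For Mrpl38 the values were 0.873 and 2.98 per 100 (1.77, adjusted p = 0.00249), and for Mrpl24 they were 0.678 and 2.12 per 100 (1.65, adjusted p = 0.0123). The exon reads of these genes thus changed little beside their uaRNAs. Mrpl1 (0.84, adjusted p = 0.047) and Mrps6 (1.25, adjusted p = 0.00723) passed by the ratio and not by uaRNA reads, and Mrpl15 and Mrpl16 the other way round. Without siZC3H4 replicate 2 the count by the ratio was 4: Mrpl38, Mrpl52, Mrps18a and Mrps28.

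Across the 27 members the log2 fold change of the uaRNA had a Pearson correlation of 0.11 with that of the exon reads, of -0.16 with the siNT uaRNA reads, of 0.29 with the siNT exon reads per kb and of 0.07 with the gene span. The Spearman correlations were 0.08, -0.09, 0.29 and -0.01 in the same order. The siNT uaRNA reads also enter the log2 fold change that they are set against. These describe 27 genes measured in the same 5 libraries and are given without a test.

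**Figure D4:**
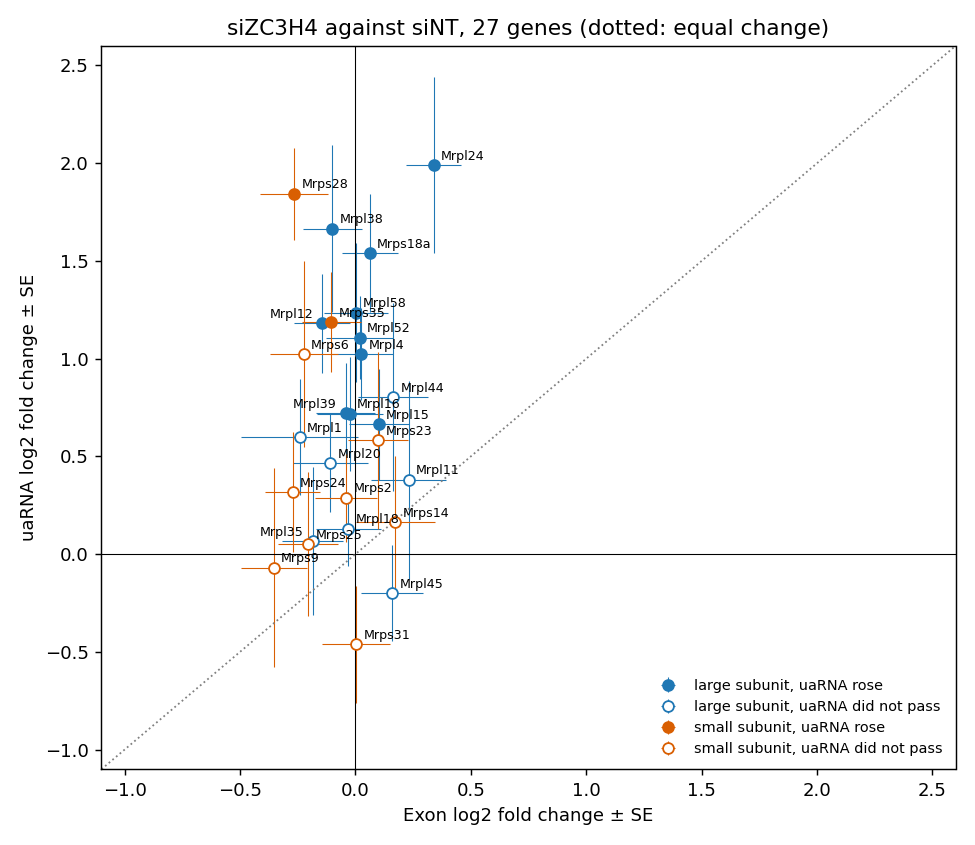
Log2 fold change of uaRNA reads against that of exon reads, libraries labelled siZC3H4 minus siNT at the authors' depth factors, with limma's standard errors, for 27 members. Filled points rose. Exon values stay between -0.35 and 0.34 while uaRNA values run from -0.46 (Mrps31) to 1.99 (Mrpl24); scaling the uaRNA table on itself turns the uaRNA median from 0.66 to -0.22.

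The 43 members without a uaRNA region were for the most part genes with another gene's start close upstream. An annotated start on the opposite strand, between 1000 bases upstream of the member's start and 100 bases inside it, was found in the deposited gene table or the RefSeq promoter table for 29 of 73 members (39.7%), against 2497 of 12009 protein-coding genes (20.8%). None of these 29 (0%) had a uaRNA region, against 383 of the 2497 (15.3%). Of the other 44 members 30 had one (68.2%, against 57.7% of such protein-coding genes), which leaves 14 members with neither. Mrpl18 was among the 30 with a uaRNA region. Its neighbour Tcp1 starts on the opposite strand more than 100 bases inside it, outside the window used, so the 0% depends on that limit. With the outer ends of RefSeq gene spans also taken as starts, 31 members (42.5%, against 21.7%) had a divergent start. Those added were Mrpl54 and Mrpl44, and Mrpl44, with Wdfy1 starting 39 bases inside it, does have a uaRNA region (1 of 31, 3.23%, against 16.8%). How the authors chose promoters for the uaRNA table is not stated in what was used here, so an absent region is not a measurement of 0. ETS letters were in 11 of 24 matched promoters of members with a divergent start (45.8%) and in 6 of 22 of members with a uaRNA region (27.3%), against 21.2% of all protein-coding promoters.

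Several of these pairs join mitochondrial genes. Mrpl46 and Mrps11, of the large and the small subunit, start 326 bases apart on opposite strands. Mrpl43 starts 155 bases from Twnk, Mrps12 291 bases from Sars2 (the mitochondrial seryl-tRNA synthetase), Mrpl47 309 bases from Ndufb5 (a complex I subunit) and Mrps27 189 bases from Ptcd2 (a protein of mitochondrial RNA processing). Others face genes of other processes, such as Mrpl49 with Fau (a cytosolic ribosomal protein fused to a ubiquitin-like one), Mrpl32 with Psma2 (a proteasome subunit) and Mrpl51 with Ncapd2 (a condensin subunit). In exon reads 0 genes of these named pairs passed the test. Mrpl46 had 981, 901 and 1211 in siNT against 967 and 1065, Mrps11 had 576, 665 and 550 against 523 and 486, and Twnk had 3010, 3417 and 2433 against 3523 and 2614. The groups overlapped for Mrpl46 and Twnk, and for Mrps11 both libraries labelled siZC3H4 were lower (-0.24 ± 0.15, adjusted p = 0.522). Sars2 had 563, 607 and 701 exon reads against 792 and 860, both higher (0.41 ± 0.15, adjusted p = 0.218), while its neighbour Mrps12 stood at -0.05. Mrpl51, given above at 0.41, faced Ncapd2 at -0.03. The Ncapd2 start used for this pair is a RefSeq one, and the deposited span of Ncapd2 overlaps Mrpl51 on the other strand.

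Of 26 divergent neighbours tested in exon reads 3 rose and 0 fell, beside the background of 2.22% and 0.144%, and their median log2 fold change was 0.00. The 26 include Mrpl46 and Mrps11, which are themselves members. Without them 3 of 24 rose and 0 fell, with a median of 0.00. Cyb5rl, opposite Mrpl37 and named for its likeness to cytochrome b5 reductase, had 107, 117 and 88.7 exon reads in siNT and 385 and 305 in the libraries labelled siZC3H4. The groups were far apart, with a log2 fold change of 1.72 ± 0.21 (adjusted p = 0.00593), while Mrpl37 itself stood at -0.24. The long noncoding RNA Ccdc142os, which starts 52 bases from Mrpl53, had 70, 90.4 and 72.5 against 294 and 192 exon reads (1.61 ± 0.25, adjusted p = 0.0146). Pnpla7, a lysophospholipase gene opposite Mrpl41, had 608, 663 and 671 against 1018 and 1026 (0.66 ± 0.13, adjusted p = 0.0353). The Pnpla7 start used for this pair is a RefSeq one, and the deposited span of Pnpla7 overlaps Mrpl41 on the other strand. The call of Pnpla7 was lost without siNT replicate 2 and also without siZC3H4 replicate 3, while those of Cyb5rl and Ccdc142os were kept. The adjusted p of all 3 was above 0.05 without siNT replicate 1, without siZC3H4 replicate 2 and with no filter on low values, so that 0 rose in each case. No value is given for Eme1, Ppp1r10 and 4930473A02Rik, the neighbours of Mrpl27, Mrps18b and Mrps26.

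**Figure D5:**
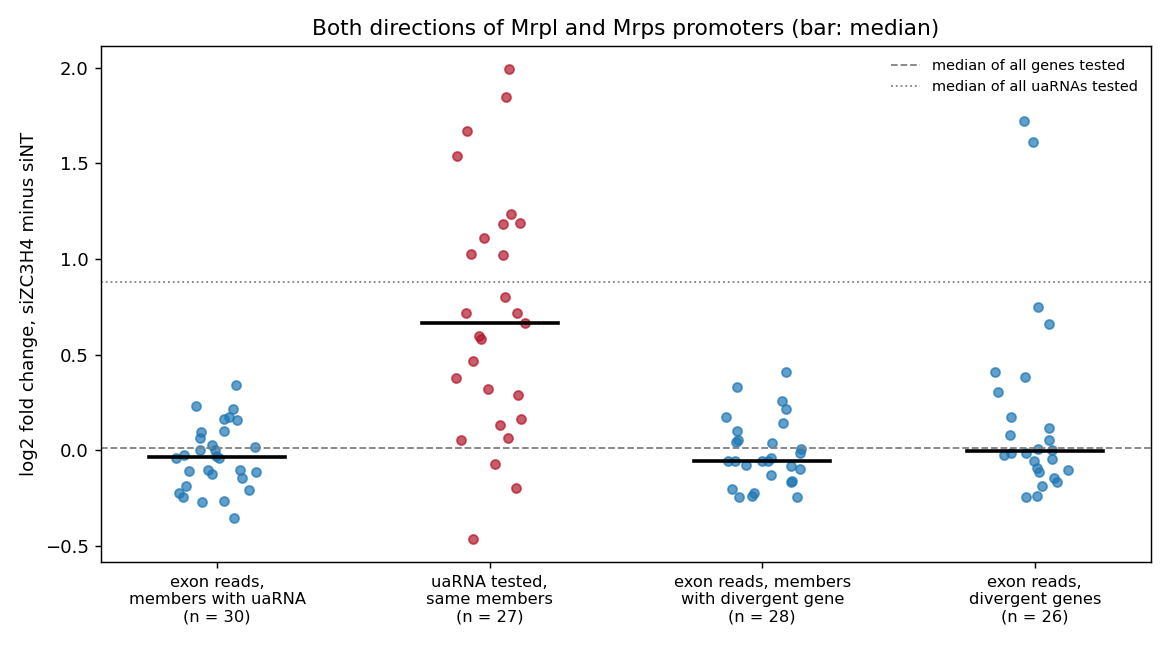
Log2 fold change, libraries labelled siZC3H4 minus siNT at the authors' depth factors, for both directions of the members' promoters; points are genes or uaRNAs and bars medians. The 4 medians are -0.04 (exon reads of members with a uaRNA), 0.66 (their uaRNAs, -0.22 with the uaRNA table scaled on itself), -0.05 (exon reads of members with a divergent gene) and 0.00 (the divergent genes), with Cyb5rl and Ccdc142os as the highest points of the last set.

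Other ribosomal and mitochondrial genes give the scale of these values. Of the uaRNAs of cytosolic ribosomal protein genes 39 of 55 rose, with a median log2 fold change of 1.21, and of respiratory chain subunits 19 of 34, with a median of 0.88, at the authors' depth factors. These shares of 70.9% and 55.9% stand beside 62.1% of all uaRNAs, whose median was 0.88. In exon reads 0 of 80 and 0 of 75 passed the test, beside 2.22% of all genes that rose and 0.144% that fell. The differences between these sets and the members were not tested. The 5 mitoribosomal genes with symbols of another kind, Dap3, Chchd1, Aurkaip1, Ptcd3 and Gadd45gip1, all had exon log2 fold changes below 0, from -0.21 to -0.11, and 0 passed. The uaRNA of Aurkaip1, a small subunit protein, rose by 2.34 ± 0.33 (log2, adjusted p = 2.68e-08).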

How the data were processed

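TT-seq libraries were made with a stranded kit, per the labels' protocols. The submitters' processing notes name cutadapt 1.14, STAR, featureCounts, DESeq2 and the builds mm10 and dm6, without settings. The authors deposited depth-normalized signal per gene (exons) and per uaRNA. Each deposited signal equalled whole reads over 1 factor per library (1, 1.15 and 1.172 for siNT, 1.767 and 1.046 for siZC3H4), with 100% of values whole within 0.01 reads. No source used here says how the factors were obtained.

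Features with a mean of 10 or more were tested on log2(value + 1) with limma 3.58.1 (eBayes with trend, R 4.3.3), without a block, with Benjamini-Hochberg adjustment over the whole table and a threshold of 0.05. Fold changes on this scale understate those of low features. "Rose" and "fell" mean past the threshold. Levels are mean ± SD. edgeR 4.0.16 and DESeq2 1.42.0 on the recovered reads called 345 and 537 rises and 19 and 97 falls among genes, and 3251 and 2835 rises and 63 and 43 falls among uaRNAs. limma was tested on simulated data. Other scalings, pseudocounts, filters and left-out libraries were tried.

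Members and gene lists were chosen with earlier results of these data known. Subunits were assigned from general knowledge. Named were the 6 highest and 6 lowest members by log2 fold change in each table, the 5 highest and lowest by level per kb, the 4 with the most uaRNA reads and with the most per exon read, members at 0 or left out by the filter, divergent pairs by count, with up to 5 named, and in other lists the members past the threshold; pairs and values beyond these were chosen after their values were seen. Within groups, libraries differed beyond counting noise (chi-square per degree of freedom 5.08 or higher). The design text calls them biological replicates, but separate cultures are not named, so p-values measure only the spread between these samples, which may be technical.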

Additional observations from a re-analysis of the deposited data

How the results depend on the processing

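With 2 and 3 libraries per group, single calls rest on few samples and on the spread limma shares across features, and members with under about 20 uaRNA reads are imprecise. At most 27 chosen values of single members were followed in each setting, so the next counts do not give the stability of all members. Over all settings, 399 of these values kept their direction and side of the threshold, 12 moved past it, 19 dropped below it and 23 reversed. The cause was not tested. Scaling the uaRNA table on itself gave 1 member that rose, 4 that fell and a median of -0.19 (TMM) or -0.22 (median of ratios), and equal totals gave 6, 2 and 0.10; in the other mitochondrial lists 4 rose and 7 fell (both scalings) or 12 and 5 (equal totals). Under TMM, median of ratios and equal totals the uaRNA log2 fold changes were -0.74, -0.76 and -0.44 for Mrpl18, -0.77, -0.79 and -0.48 for Mrpl35, -0.57, -0.60 and -0.28 for Mrps2 and -0.78, -0.81 and -0.50 for Mrps25. The uaRNA of Mrps9 was at 0.013 with DESeq2 and 0.049 with edgeR. With a minimum mean of 50 the ratio median was 0.75. The count of divergent starts with RefSeq span ends added was chosen after seeing the data.

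Leaving out 1 library at a time, exon calls of members ran from 0 to 1 risen, uaRNA calls from 7 to 12 with a median of 0.54 to 0.79, and ratio calls from 4 to 12 with a median of 0.58 to 0.76. The log2 fold change of Zc3h4 ran from 0.95 to 1.07 and that of Mrpl34 exon reads from -0.57 to 0.065; uaRNA values ran from -0.24 to 0.37 for Mrpl35, -0.21 to 0.33 for Mrps25, -0.53 to 0.39 for Mrps9 and -0.48 to 0.079 for Mrpl45. In the other lists exon rises ran from 0 to 10 and uaRNA falls from 0 to 1. Among those lists DESeq2 called 11 exon rises and equal totals 5.

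Replicate numbers are shared by the groups for 2 pairs only, and the labels do not say that they pair samples. Same-numbered libraries deviated together in exon reads (correlations 0.53 and 0.62) and in uaRNA reads (0.38 and 0.43), a hint from the data. With 2 libraries labelled siZC3H4, their deviations from the group mean mirror each other. The 2 correlations of each kind of read are therefore not independent. With the replicate block 4 members rose in exon reads (Mrpl2, Mrpl23, Mrpl24 and Mrpl51) and 1 fell (Mrps9), against 1530 and 830 of all genes; in the other lists 24 rose and 3 fell. With this block 12 uaRNAs and 13 ratios of members rose, and the uaRNA of Mrpl35 was at -0.18.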

Other observations

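Other genes of mitochondrial gene expression were examined in the same libraries. With them were transcription regulators of nuclear-encoded mitochondrial genes, such as Nrf1, Myc and Yy1, which act in the nucleus. Of 111 genes tested in exon reads, 14 of them such regulators, 3 rose and 0 fell, a share near the 2.22% and 0.144% of all genes. Mgme1, a nuclease of mitochondrial DNA maintenance, had 1666 ± 170 depth-normalized exon reads in siNT (SD, n = 3) and 3534 ± 141 in the libraries labelled siZC3H4 (n = 2), a log2 fold change of 1.09 ± 0.13 (SE). Ears2 and Iars2, mitochondrial aminoacyl-tRNA synthetases, rose by 0.99 ± 0.12 and 0.71 ± 0.12. The 3 calls were lost when siNT replicate 1 or siZC3H4 replicate 2 was left out, and those of Ears2 and Iars2 also without siZC3H4 replicate 3. Among 16 such synthetases 13 were above 0, and the groups did not overlap for 9 (56.2%), all higher, beside 19.5% of all genes; 6550 of all 12482 genes were above 0.

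Of 50 uaRNAs of these genes 27 rose and 1 fell at the authors' depth factors. The share that rose was no larger than the 62.1% of all uaRNAs, and 1.13% of all fell. The 50 include 7 uaRNAs of the transcription regulators, of which 5 rose. That of Mpv17l2, a mitoribosome assembly factor, went from 5.76 ± 3.93 to 60.1 ± 35 reads (3.26 ± 0.49, adjusted p = 1.5e-07), and that of Supv3l1, a mitochondrial RNA helicase, from 309 ± 23.4 to 1034 ± 242 reads (1.72 ± 0.22). The uaRNA of Tufm, the mitochondrial elongation factor Tu, rose by 1.10 ± 0.27. The uaRNA that fell was that of Mtrf1, a mitochondrial release factor, by 0.93 ± 0.32 on the log2 scale, a call lost without siNT replicate 2 and without siZC3H4 replicate 3. In exon reads Mtrf1 stood at 0.79 ± 0.22 and did not pass (adjusted p = 0.104).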
